A study of Mus musculus with 36 samples.

Results

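The GATA factors are zinc finger transcription factors that bind DNA at the letters GATA, and the mouse has 6 of them, Gata1 to Gata6. They were taken by gene symbol from the 54281 genes of each table, and all 6 were among the 21601 genes that passed a filter on low counts. RNA was measured in 36 libraries from mouse embryonic stem cells (ESCs) led toward anterior neural progenitors in neurobasal medium with bFGF, sampled on days 0 to 5. The tested groups were KO, lines KO1 and KO15 without Tet1 (Tet1 tm1Koh homozygotes), and MUT, lines CM59 and CM69, each 1 CRISPR clone derived from the line WT7 whose TET1 protein is catalytically dead. Their references were WT, lines WT7 and WT34, which are littermates of the KO lines, and WT70, labelled only as wild type, with 1 library per day. All these lines are male (B6 x 129S6)F1 cells, were kept on mouse embryonic fibroblast feeders, and were plated after feeder depletion. KO and WT had 2 libraries each on days 0, 1, 2 and 4, 4 each on day 3 and 3 each on day 5, and MUT had 2 libraries on day 3 and 2 on day 5. Days 0, 3 and 5 of KO and WT were first sampled in experiment 1 (12 libraries), the KO and WT lines were differentiated again in experiment 2 (18 libraries, with only KO1 and WT7 on day 5), and MUT and WT70 made up experiment 3 (6 libraries). Libraries therefore count differentiations of 2 lines per genotype, and p-values measure the spread between these libraries.

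GATA1, GATA2 and GATA3 are best known from blood: GATA1 drives red cell and megakaryocyte genes, GATA2 keeps blood stem and progenitor cells, and GATA3 directs T cells. GATA2 and GATA3 also act in trophoblast and in inhibitory V2b neurons of the spinal cord. GATA4, GATA5 and GATA6 work in heart and in endoderm, and GATA6 and GATA4 stand at the top of the primitive endoderm programme in the early embryo. TET1 oxidises 5-methylcytosine at CpG dinucleotides and also has functions that do not need its catalytic domain, which KO against MUT cells can separate.

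Library totals ran between 10.1 and 26.3 M counts. Tet1 checked the KO labels: KO1 and KO15 had 28.9 and 33.3 CPM (counts scaled to a common library size with edgeR's TMM factors) on day 0, against 1308 and 1432 CPM in WT, and every KO library was below every WT library on each day. The catalytically dead allele still gives a transcript, so the level of Tet1 checked no MUT label (182.3 and 157.7 CPM in MUT on day 5, against 169.5 CPM in WT70).

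The positions of 5 members are given (mm10, GENCODE M21 annotation). Gata1 (ENSMUSG00000031162.14) is at chrX:7959260-7978071 on the minus strand. Gata2 (ENSMUSG00000015053.14) is at chr6:88193891-88207032 on the plus strand. Gata3 (ENSMUSG00000015619.10) is at chr2:9857078-9890034 and Gata5 (ENSMUSG00000015627.5) at chr2:180325133-180334699, both on the minus strand. Gata4 (ENSMUSG00000021944.15) is at chr14:63198922-63271692 on the minus strand. Gata5 overlaps the antisense gene Gata5os (chr2:180332857-180340732, plus strand), which never had more than 1 count in a library. RefSeq promoter windows (build GRCm38.p6, 250 bases before to 50 after a start) matched 4 members, and those of Gata1 and Gata3 lie inside the outer bounds of the genes above. They are shown because TET1 acts on CpG dinucleotides, which stand in capitals.
Gata1 promoter, chrX:7967861-7968160, minus strand: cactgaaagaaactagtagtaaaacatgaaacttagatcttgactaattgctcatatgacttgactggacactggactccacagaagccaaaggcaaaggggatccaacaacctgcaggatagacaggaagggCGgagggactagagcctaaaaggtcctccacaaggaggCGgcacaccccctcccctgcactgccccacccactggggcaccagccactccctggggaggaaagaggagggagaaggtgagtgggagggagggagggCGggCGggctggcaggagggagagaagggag
Gata2 promoter, chr6:88193641-88193940, plus strand: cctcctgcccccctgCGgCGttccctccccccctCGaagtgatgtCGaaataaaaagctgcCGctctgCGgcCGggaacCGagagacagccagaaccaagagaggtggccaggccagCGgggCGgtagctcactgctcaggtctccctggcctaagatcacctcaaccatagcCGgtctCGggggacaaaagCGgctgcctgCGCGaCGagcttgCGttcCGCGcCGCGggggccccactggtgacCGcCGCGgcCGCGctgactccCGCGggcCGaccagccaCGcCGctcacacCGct
Gata3 promoter, chr2:9878551-9878850, minus strand: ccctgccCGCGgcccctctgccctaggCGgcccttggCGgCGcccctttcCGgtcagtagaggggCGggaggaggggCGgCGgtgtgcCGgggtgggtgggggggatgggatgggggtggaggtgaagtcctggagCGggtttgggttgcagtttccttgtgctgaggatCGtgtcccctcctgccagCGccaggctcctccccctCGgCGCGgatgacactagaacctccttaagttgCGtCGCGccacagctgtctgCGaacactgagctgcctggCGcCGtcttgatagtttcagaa
Gata5 promoter, chr2:180334630-180334929, minus strand: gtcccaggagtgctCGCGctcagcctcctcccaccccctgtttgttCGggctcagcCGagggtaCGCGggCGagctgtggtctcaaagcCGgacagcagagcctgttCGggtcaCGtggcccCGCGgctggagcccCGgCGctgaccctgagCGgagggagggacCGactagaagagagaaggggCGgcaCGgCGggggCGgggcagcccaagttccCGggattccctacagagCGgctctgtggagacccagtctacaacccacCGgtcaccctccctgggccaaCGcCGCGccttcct

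These windows differ in CpG content. The Gata1 window held 4 CpG dinucleotides, against a median of 7 over 32851 RefSeq windows, and 31.4% of windows held fewer. The Gata2, Gata3 and Gata5 windows held 32, 22 and 26, and 90.5%, 76.9% and 83.1% of windows held fewer. A second Gata2 window (chr6:88198414-88198713) held 29. Searched on both strands for the GATA site (AGATAA or AGATAG or TGATAA or TGATAG), the Gata3 window held 1 match and the other 4 windows none, while 29.8% of all windows held at least 1. No methylation or binding was measured in these libraries.

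From day 0 to day 3 no member passed the test between KO and WT cells. Gata4 in KO stood at 4.34 and 4.79 CPM on day 0, 7.27 and 6.13 on day 1, 9.92 and 21.3 on day 2, and 5.04, 4.98, 11.5 and 14.8 on day 3. In WT, Gata4 had 3.26 and 6.40 CPM on day 0, 5.58 and 11.0 on day 1, 7.83 and 15.2 on day 2, and 3.61, 5.90, 10.8 and 20.1 on day 3. Its KO and WT libraries overlapped on each of these days. Gata6 lay between 1.92 and 13.5 CPM in KO and between 1.53 and 11.0 CPM in WT over days 0 to 3. Gata1, Gata2 and Gata3 stayed at or under 3.20 CPM in KO and 2.54 CPM in WT, and Gata5 was at or near 0, with at most 4 counts in a library.

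No member differed between KO and WT on days 0, 1, 2 or 3 past the threshold used throughout, which asks for an adjusted p below 0.05 and a log2 fold change above 1 or below -1 (edgeR quasi-likelihood test, Benjamini-Hochberg over all 21601 genes). A gene past it is said to be called, or to have risen or fallen. Of all tested genes 0.866%, 0.634%, 0.616% and 3.96% were called on these days. Without passing the test, both KO libraries lay above both WT libraries for Gata1, Gata3 and Gata5 on day 0, for Gata3 on day 1 and for Gata2, Gata3 and Gata5 on day 2, and both lay below for Gata6 on day 1. On day 3 all 6 members overlapped. The share of all genes without overlap was not counted on these days. Without adjustment, 0, 0, 1 and 0 members had p under 0.05, Gata3 on day 2 being the 1, and DESeq2 and limma on TPM called 0 on each day. A small change in a member with few counts was not detectable at this depth.

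Gata4 and Gata6, the endoderm and heart pair, rose together on day 4 in KO. KO1 and KO15 held 62.7 and 50.2 CPM of Gata4 on day 4, against 8.54 and 22.7 CPM in WT7 and WT34. For Gata6 the values were 38.6 and 32.2 CPM in KO and 6.24 and 11.7 CPM in WT. The groups did not overlap for either gene, and WT34 was above WT7 for both. The log2 difference, KO over WT, was 1.85 ± 0.56 (SE) for Gata4 (adjusted p = 0.0224) and 1.98 ± 0.59 for Gata6 (adjusted p = 0.0213). In a bulk library, more cells of a type and more RNA per cell cannot be told apart. With WT7 left out the same estimates were 1.34 (adjusted p = 0.251) for Gata4 and 1.62 (adjusted p = 0.203) for Gata6, and with KO1 left out they were 1.70 (adjusted p = 0.11) and 1.86 (adjusted p = 0.0961), so each call needed these libraries.

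Gata1 had the largest day 4 difference of the 6 members. It stood at 15.5 and 13.5 CPM (227 and 176 counts) in KO1 and KO15, against 0.371 and 0.0704 CPM (5 and 1 counts) in WT7 and WT34. This put the KO libraries far above the WT libraries, by 6.01 ± 0.82 on the log2 scale (adjusted p = 6.51e-06), and the call held with any 1 library left out. The level in KO1 on day 4 was the highest Gata1 level of the series.

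Of the other members, Gata3 was higher in KO on day 4 by 1.58 ± 0.40 (adjusted p = 0.00625). It had 3.83 and 4.14 CPM in KO and 0.891 and 1.76 CPM in WT. Without WT7 its difference was 1.20 (adjusted p = 0.121). Gata2 had 0.410 and 0.921 CPM in KO and 0.445 and 0.211 CPM in WT (log2 difference 0.99 ± 0.94, adjusted p = 0.565). Gata5 had 0 and 1 counts in KO and 0 and 0 in WT, too few for a fold. Thus 4 of 6 members were called on day 4, all higher in KO, beside 7.68% of all genes.

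**Figure D1:**
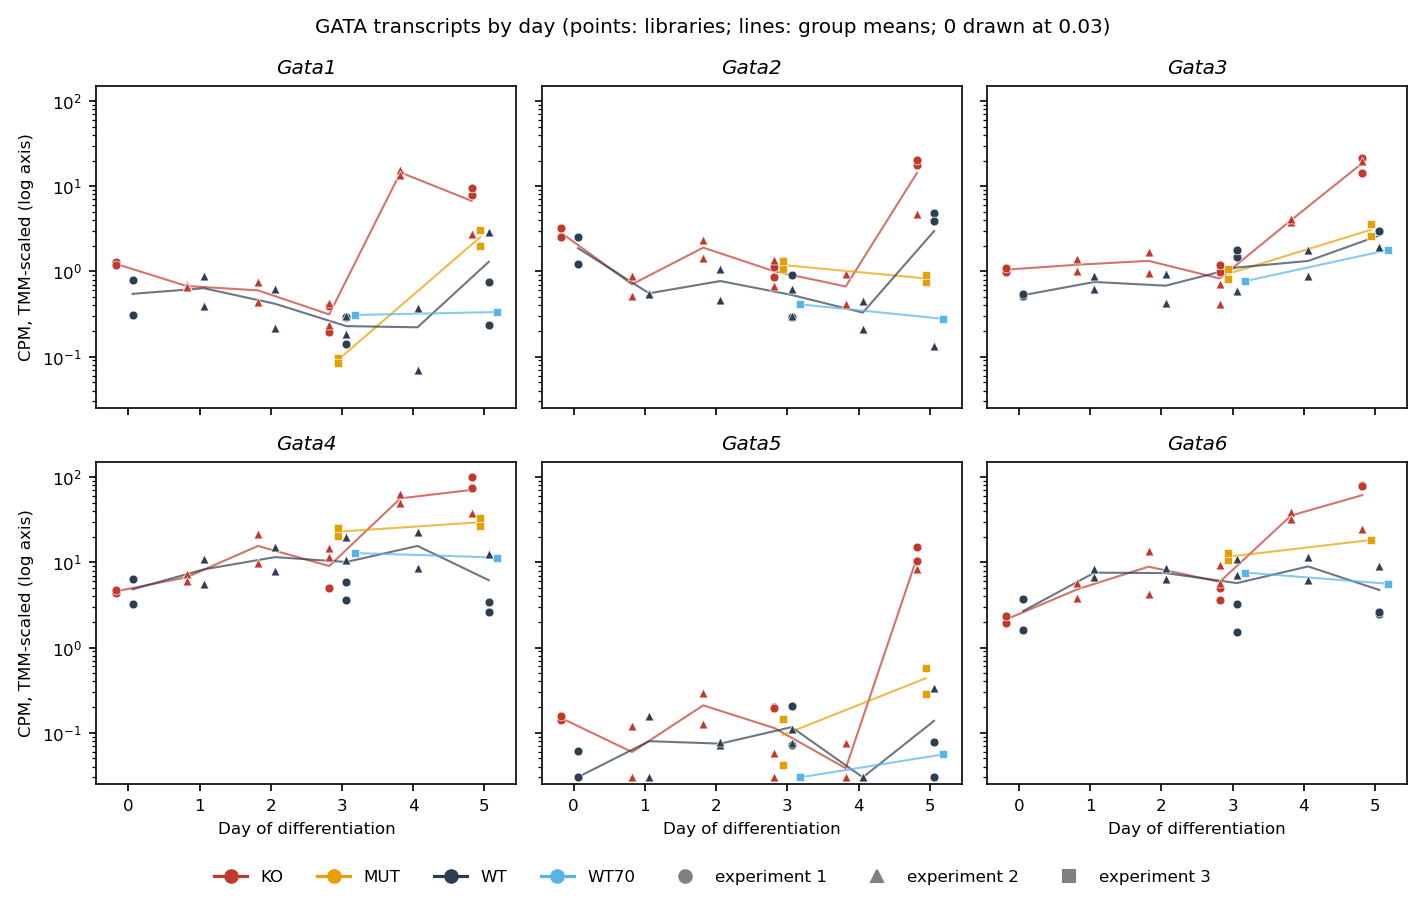
CPM of each GATA gene in every library by day, on a log axis, in KO, MUT, WT and WT70, with libraries at 0 drawn at the foot of the axis. Gata4, Gata6 and Gata1 separated KO and WT on day 4, and Gata2 and Gata5 became high in KO on day 5, where Gata5 reached 15.3 CPM.

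On day 5 all 6 members were higher in KO, with a median log2 difference of 3.41, against -0.01 over all tested genes. Of all tested genes 11.7% were called on this day in either direction. Gata4 had 99.6, 75.6 and 37.7 CPM in KO, against 2.65, 3.40 and 12.48 CPM in WT, a log2 difference of 3.93 ± 0.52 (adjusted p = 1.81e-06). Gata6 had 80.2, 79.7 and 24.8 CPM in KO, against 2.50, 2.63 and 9.11 CPM in WT, a difference of 4.01 ± 0.54 (adjusted p = 2.36e-06). In both genes every KO library was above every WT library, and the third value, from experiment 2, was the lowest in KO and the highest in WT.

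Gata5, the heart and endoderm paralog that had been nearly silent, rose in KO on day 5. Its counts were 230, 176 and 89 in KO (15.3, 10.4 and 8.34 CPM), against 0, 1 and 5 in WT (0, 0.0773 and 0.337 CPM). The pooled counts, scaled by library size, gave a KO over WT ratio of 79.4 (exact 95% interval 36.2 to 217, counting error only), and edgeR gave an adjusted p of 1.49e-07. One day earlier the same genotype had 1 count in 2 libraries, a day 5 over day 4 ratio of 321 (57.4 to 12700).

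Among the blood paralogs, Gata3 had the most even levels on day 5, with 21.5, 14.5 and 20.0 CPM in KO and 2.95, 3.01 and 1.96 CPM in WT. Its log2 difference was 2.89 ± 0.31 (adjusted p = 6.35e-08), and the groups did not overlap. Gata2 had 17.9, 20.3 and 4.78 CPM in KO and 4.85, 3.94 and 0.135 CPM in WT, a difference of 2.37 ± 0.52 (adjusted p = 0.000891). Here the groups overlapped slightly, since KO1 of experiment 2 (4.78 CPM) lay under WT7 of experiment 1 (4.85 CPM). Gata1 had 7.91, 9.54 and 2.72 CPM in KO and 0.757, 0.232 and 2.90 CPM in WT, a difference of 2.50 ± 0.57 (adjusted p = 0.00121). It too overlapped: KO1 of experiment 2 was below WT7 of the same experiment. Fitted on the compared libraries alone, Gata1 kept its difference of 2.50 and lost its call (adjusted p = 0.0667).

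**Figure D2:**
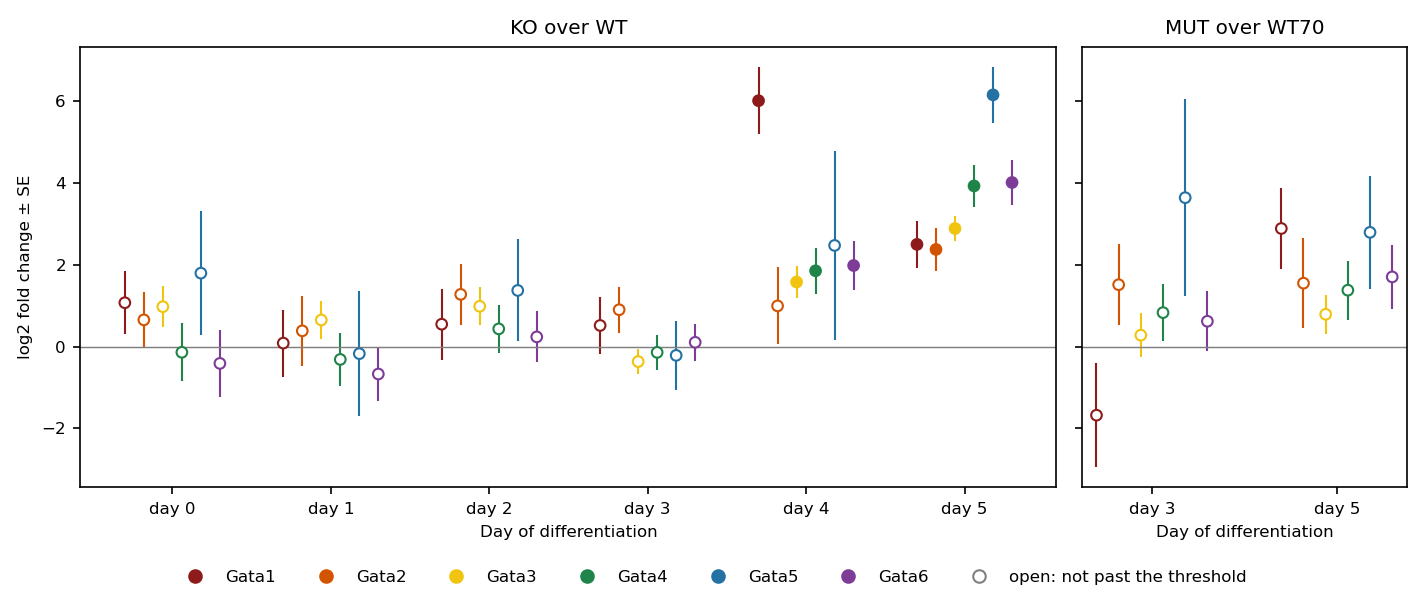
Log2 fold change ± SE of each GATA gene, KO over WT by day and MUT over WT70 on days 3 and 5, with filled points past the threshold and open points not. KO passed for 4 members on day 4 and 6 on day 5, and MUT for none; fitted values of Gata5 against libraries of 0 or 1 counts depend on the prior count and are no bounds.

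The day 5 differences were taken again within each experiment, since the third library of each group stood apart. For Gata6 the KO effect was 1.45 ± 0.53 in experiment 2 (adjusted p = 0.0689) and 4.96 ± 0.44 in experiment 1 (adjusted p = 6.66e-09), and the test of the difference, experiment 2 minus experiment 1, gave -3.51 ± 0.69 (adjusted p = 0.00523). Gata4 behaved alike, with 1.59 ± 0.57 in experiment 2 (adjusted p = 0.061) and 4.85 ± 0.48 in experiment 1 (adjusted p = 3.77e-08), a difference of -3.26 ± 0.75 (adjusted p = 0.0187). Gata1 was not higher in KO in experiment 2, where the effect was -0.09 ± 0.61 (adjusted p = 0.983) and its 2 libraries held 2.72 and 2.90 CPM, while in experiment 1 it was 4.12 ± 0.51 (adjusted p = 1.06e-06). That difference was -4.21 ± 0.81 (adjusted p = 0.00434). These 3 calls stood beside 1.54% of all genes. Experiment 2 held 1 KO and 1 WT library on day 5, so the test took its spread from other groups, it was added after these libraries had been seen, and a difference of experiment cannot be told apart from one of a single library.

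The remaining members were past the threshold in both experiments. Gata3 had an effect of 3.35 ± 0.46 in experiment 2 (adjusted p = 1.67e-05) and 2.59 ± 0.31 in experiment 1 (adjusted p = 8.71e-07), with a difference of 0.76 ± 0.54 (adjusted p = 0.608). Gata2 had 51 counts in KO and 2 in WT in experiment 2, a ratio of 35.4 (exact 95% interval 9.32 to 300.0). In experiment 1 its effect was 2.12 ± 0.41 (adjusted p = 0.000267). The difference, experiment 2 minus experiment 1, was 2.948 ± 1.025 and was not called. Its sign was opposite to that of Gata1, Gata4 and Gata6. Gata5 had 89 counts in KO and 5 in WT in experiment 2, a ratio of 24.7 (10.2 to 78.0), and 406 in KO and 1 in WT in experiment 1, a ratio of 333 (59.4 to 13200); their difference was not called (unadjusted p = 0.0212, adjusted p = 0.241). With 1 library in each arm, 3 of 6 members were called within experiment 2, where 7.76% of genes were, and with 2 in each arm 6 of 6 within experiment 1, where 11.7% were. The values of experiment 2 on day 5 compare those 2 libraries. On day 3 the KO effect differed between experiments for none of the 6 (edgeR; none under an unadjusted p of 0.05, and not run with another tool), beside 0.00463% of genes, which is 1 gene.

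**Figure D3:**
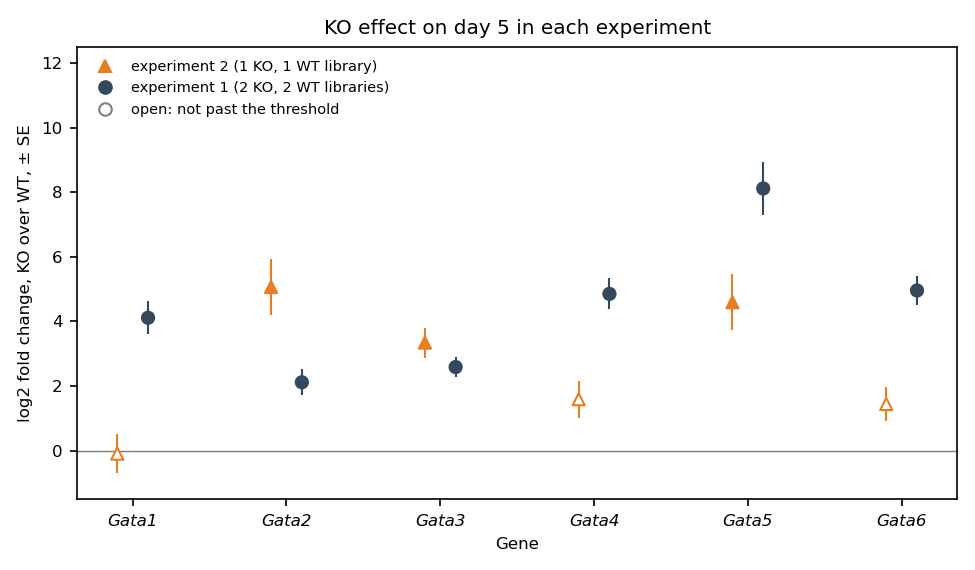
KO over WT log2 fold change ± SE of each GATA gene on day 5 in experiment 2 (1 KO and 1 WT library) and experiment 1 (2 and 2), with filled points past the threshold. The effects on Gata1, Gata4, Gata5 and Gata6 were lower in experiment 2 than in experiment 1, with the difference called for all of these but Gata5, and Gata3 was past the threshold in both.

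Libraries of 1 genotype also differed between experiments. On day 3, Gata4 stood at 10.8 and 20.1 CPM in WT of experiment 2, against 3.61 and 5.90 CPM in experiment 1 (log2 difference 1.74 ± 0.45, adjusted p = 0.0179). Gata6 had 7.13 and 11.0 CPM in experiment 2 and 1.53 and 3.24 CPM in experiment 1 (1.96 ± 0.45, adjusted p = 0.00796), and Gata3 was lower in experiment 2, at 0.6003 and 0.591 CPM against 1.46 and 1.80 CPM (-1.44 ± 0.39, adjusted p = 0.0232). With these, 3 of 6 members were called, beside 1.72% of genes. On day 5 the single WT library of experiment 2 stood above the 2 of experiment 1 for Gata1, Gata4 and Gata6, by 2.53, 2.04 and 1.83. For Gata2 it stood below, with 2 counts against 64 and 51 (log2 difference -4.945), the largest size of the 6 members. Calls are left out here because that arm was 1 library. The spread of that arm was not measured, and a difference of experiment cannot be told apart from one of that library.

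KO libraries differed as well. On day 5, Gata6 had 24.8 CPM in the single KO library of experiment 2, against 80.2 and 79.7 CPM in experiment 1 (log2 difference -1.69 ± 0.45, adjusted p = 0.00956). Gata2 (-1.998 ± 0.53, adjusted p = 0.0093) and Gata1 (-1.68 ± 0.54, adjusted p = 0.0324) were lower there too, and these 3 calls stood beside 6.36% of genes. On day 3, edgeR called no member between the experiments in KO, 3 had an unadjusted p under 0.05, and 1.67% of genes were called; no other tool was run.

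Several gene lists also differed between experiments, in KO not always in the direction of the members. In WT of experiment 2 on day 3, 7 of 13 primitive and visceral endoderm genes and 3 of 14 definitive endoderm genes were higher than in experiment 1, and none was lower. Among them were Lama1 (1.91), a basement membrane laminin, Pdgfra (1.82), a receptor of primitive endoderm, Dab2 (1.49), an endocytic adaptor of visceral endoderm, and Sox17 (1.63), a transcription factor of endoderm. On day 5 in WT, 9 of 14 definitive endoderm genes were higher and 1 lower, with Sox17 higher by 2.68, 7 of 9 primitive streak genes were higher, 6 of 13 cardiac genes were higher and 1 lower, and of 10 BMP response genes 1 was higher and 5 lower. In KO of experiment 2, 5 of 13 primitive and visceral endoderm genes were higher on day 3 and 4 of 13 on day 5, when 6 of 10 BMP response genes and 3 of 13 cardiac genes were lower. Of all tested genes, 1.72% were called between experiments in WT on day 3 and 7.76% on day 5. In KO the shares were 1.67% and 6.36%. On day 5 experiment 2 was 1 library per genotype, so the spread of that arm was not measured. In KO on that day more primitive streak genes were lower than higher, and no definitive endoderm gene was called. Primitive and visceral endoderm genes in WT went both ways. The part of such cells in the experiment differences was not tested.

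All 6 members rose in KO cells between day 3 and day 5. On day 3 against day 0, only Gata1 was called in KO, falling by 2.10 on the log2 scale (± 0.71, adjusted p = 0.0191), beside 21.2% of genes. That call was lost with any of 3 libraries left out, KO1 of day 0 (-2.04, adjusted p = 0.0827), KO15 of day 0 (-2.16, adjusted p = 0.0591) or KO15 of experiment 1 on day 3 (-1.95, adjusted p = 0.0524). Day 4 against day 3 called 4 members, beside 11.2% of genes: Gata1 rose by 5.33 ± 0.62, Gata3 by 2.63 ± 0.35, Gata4 by 2.22 ± 0.49 and Gata6 by 2.22 ± 0.52. Day 5 against day 4 called 3, beside 7.22% of genes: Gata2 rose by 3.38 ± 0.76 and Gata3 by 1.83 ± 0.36, and Gata5 by the ratio above. Without KO1 of experiment 2 on day 5, Gata4 (2.33, adjusted p = 0.000897) and Gata6 (2.65, adjusted p = 0.000265) were called too. Day 4 was sampled only in experiment 2, so that refit set day 5 of experiment 1 against day 4 of experiment 2. Within experiment 2, KO1 had 62.7 CPM of Gata4 on day 4 and 37.7 CPM on day 5. Its Gata6 values were 38.6 and 24.8 CPM, so a rise from day 4 to day 5 was not seen within that experiment. Gata1 was not called, at 7.91, 9.54 and 2.72 CPM on day 5 against 15.5 and 13.5 CPM on day 4 (-0.82 ± 0.67, adjusted p = 0.459), but fitted on the compared libraries alone it was called lower on day 5 (-2.40, adjusted p = 0.000294). Day 5 against day 3 called all 6 members as higher, beside 22.3% of genes. The members thus passed the threshold on different days in KO, with Gata1, Gata3, Gata4 and Gata6 on day 4 and Gata2 and Gata5 on day 5; whether the days differ between members was not tested.

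In WT the blood paralogs rose and the endoderm and heart pair did not pass. Day 3 against day 0 called only Gata3 (1.28 ± 0.45, adjusted p = 0.0254), beside 22.5% of genes, and DESeq2 did not call it (adjusted p = 0.0586). It was lost without WT7 (1.21, adjusted p = 0.1) or WT34 (1.31, adjusted p = 0.165) on day 0, and without WT7 (1.16, adjusted p = 0.113) or WT34 (1.02, adjusted p = 0.201) of experiment 1 on day 3. Day 4 against day 3 called no member by edgeR, DESeq2 or limma, with none under an unadjusted p of 0.05, beside 5.37% of genes. Day 5 against day 4 called only Gata1 (2.69 ± 0.86, adjusted p = 0.0496), beside 2.67% of genes, and the call was lost with the cell line as a block (2.54, adjusted p = 0.0904). It was lost as well without WT7 (4.23, adjusted p = 0.0859) or WT34 (1.96, adjusted p = 0.356) on day 4, and without WT7 of experiment 2 on day 5 (0.48, adjusted p = 0.798), where Gata2 was called instead (2.99, adjusted p = 0.00787). Day 5 against day 3 called 3 members as higher, beside 15.5% of genes, namely Gata1 (2.53 ± 0.64), Gata2 (1.90 ± 0.58) and Gata3 (1.21 ± 0.31). The Gata1 call rested on 1 library: without WT7 of experiment 2 on day 5 it was 0.80 (adjusted p = 0.371). The Gata2 call was lost without WT34 of experiment 1 on day 3 (1.47, adjusted p = 0.0628) or WT7 of experiment 1 on day 5 (1.48, adjusted p = 0.0691). Gata4 (-0.57 ± 0.49, adjusted p = 0.378) and Gata6 (-0.15 ± 0.52, adjusted p = 0.85) were not called.

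MUT cells bear on whether catalysis is needed. On day 3 no member differed between MUT and WT70 by edgeR, DESeq2 or limma, with none under an unadjusted p of 0.05, beside 0.148% of genes. On day 5, Gata4 had 26.4 and 32.8 CPM in MUT and 11.4 CPM in WT70 (log2 difference 1.38 ± 0.72, adjusted p = 0.387). Gata6 had 18.3 CPM in both MUT clones and 5.62 CPM in WT70 (1.70 ± 0.78, adjusted p = 0.297). Gata1 had 3.07 and 1.97 CPM in MUT and 0.334 CPM in WT70 (2.89 ± 0.98, adjusted p = 0.118). Both MUT clones were above the single WT70 library for all 6 members. The share of all genes in that order was not counted, so the order is given as a description only. None of the 6 passed the threshold, which 1.87% of genes did. Without adjustment 2 members, Gata1 and Gata6, had p under 0.05, and DESeq2 and limma called 0. Fitted on the compared libraries alone, the log2 differences were 2.88 for Gata1, 1.37 for Gata4 and 1.69 for Gata6, close to those above. These 3 members were called there, beside 4.3% of genes. That fit held 2 MUT libraries and 1 WT70 library, so its spread came only from the 2 MUT clones. The spread of WT70 was not measured, and no conclusion is drawn from these calls.

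The other members were low in MUT on day 5. Gata2 had 0.741 and 0.914 CPM in MUT and 0.278 CPM in WT70, Gata3 had 2.60 and 3.56 CPM in MUT and 1.78 CPM in WT70, and Gata5 had 11 and 6 counts in MUT and 1 in WT70. Set against WT7 and WT34 in place of WT70, which crosses experiments, MUT was higher on day 5 for Gata4 (2.81, adjusted p = 0.000651) and Gata6 (2.35, adjusted p = 0.00416) and lower for Gata2 (-1.95, adjusted p = 0.0298). These 3 calls stood beside 8.6% of genes. The calls in MUT depended on which wild-type libraries were used, on the filter on low counts and on which libraries were fitted. For Gata2 the direction depended on the wild-type libraries. Within MUT, day 5 against day 3 called Gata1 (4.68 ± 0.87, adjusted p = 0.000114) and Gata3 (1.71 ± 0.39, adjusted p = 0.00101) as higher, beside 17.4% of genes.

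The KO effect was then compared with the MUT effect directly. On day 3 the effects differed for none of the 6 members by edgeR, DESeq2 or limma, with none under an unadjusted p of 0.05, beside 0.394% of genes. On day 5 the KO effect of Gata3 exceeded the MUT effect by 2.10 ± 0.55 (adjusted p = 0.0208), being 2.89 ± 0.31 in KO and 0.79 ± 0.47 in MUT. Gata3 was the 1 member called, beside 3.62% of genes. For Gata4 (2.55 ± 0.84, adjusted p = 0.0795) and Gata6 (2.31 ± 0.91, adjusted p = 0.159) the difference did not pass, which does not show that the effects were alike. Left without KO1 of experiment 2 on day 5, the same test gave 1.69 (adjusted p = 0.0502) for Gata3 and called Gata4 (3.31, adjusted p = 0.0012) and Gata6 (3.10, adjusted p = 0.00299) instead. Without WT7 of experiment 2 it called Gata4 as well (3.07, adjusted p = 0.0372), and without CM59 it called none (Gata3 1.89, adjusted p = 0.0945). MUT and WT70 come from another experiment than KO and WT, and the allele and the experiment are separated only through the 2 references.

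Gata4 and Gata6 kept step over the whole series. The ratio of Gata4 to Gata6 CPM lay between 0.833 and 2.36, with a median of 1.58, over the 36 libraries, although Gata4 itself ranged between 2.65 and 99.6 CPM. Across libraries their log2 CPM correlated with a Pearson r of 0.967 and a Spearman rho of 0.961, given as a description, since the libraries share lines, days and experiments. Of 13208 genes with a mean of at least 1 CPM, each was the gene most like the other. Sox17 was the next for both, with r = 0.896 to Gata4 and r = 0.917 to Gata6. Among other pairs of members, Gata3 and Gata5 had the highest Pearson r, 0.791 (rho 0.429), and Gata1 and Gata3 the highest rho, 0.524 (r 0.708). Gata2 and Gata4 had an r of 0.172.

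The genes most like the other members over the 36 libraries, by Pearson r of log2 CPM, were of mixed kinds. Gata1 was nearest to Mylip (0.886), an E3 ubiquitin ligase, and to Rabgap1l (0.886), and Gata2 to March7 (0.837), another ubiquitin ligase. Gata3 was nearest to Hmbox1 (0.923), a homeobox gene, and among its first 5 was Kdr (0.89), the VEGF receptor of early mesoderm and endothelium. Gata5 was nearest to Dok4 (0.903), followed within its first 5 by the heart transcription factors Tbx20 (0.878) and Hand2 (0.877). Rank correlations of Gata5 were lower, at 0.57, 0.495 and 0.395 to these 3 genes, and Gata5 was at 0 in 9 libraries.

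Levels between members can be compared only per length, in TPM. On day 5 in KO the order of mean TPM was Gata3 at 28.7 ± 11.2, Gata4 at 16.9 ± 8.2, Gata6 at 10.3 ± 5.5, Gata2 at 4.29 ± 3.05, Gata1 at 1.86 ± 0.93 and Gata5 at 1.67 ± 0.49 (SD, n = 3 libraries). The ranges of mean ± SD of neighbours in this order overlapped. Within libraries, Gata4 was above Gata6 and Gata6 above Gata2 in 3 of 3, Gata3 above Gata4 and Gata2 above Gata1 in 2 of 3, and Gata1 above Gata5 in 1 of 3, so only the first 2 of these orders held in each library. The place of Gata3 is doubtful: its TPM per CPM varied 81.9-fold between libraries with at least 5 counts, against 1.1-fold for Gata5 and 2.47-fold for Gata6. On day 4 the 2 KO libraries had 0.571 and 6.94 TPM of Gata3 at 3.83 and 4.14 CPM. Statements on Gata3 above therefore rest on counts.

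GATA factors act with partners. Of 17 cofactors and complex partners, 1 was higher in KO than in WT on day 4 and none was lower. This was a smaller share than the 7.68% of all genes called. The 1 was Zfpm1 (FOG1, the partner of GATA1), by 1.78 ± 0.24 (adjusted p = 4.5e-06). On day 5, 6 of 17 were higher and none lower, beside 11.7% of all genes, with a median log2 difference of 0.31 against -0.01 over all genes. Among them were Zfpm1 (2.08), Zfpm2 (FOG2, the partner of GATA4 in heart; 3.17), Lmo2 (2.05), a bridging protein of the blood complex, and Tal1 (3.13), its basic helix-loop-helix member. Ldb1, the scaffold of that complex (0.08), and the coactivator Ep300 (0.09) were not called. No partner was called in MUT against the single WT70 library on day 5, beside 1.87% of all genes.

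On day 4, when Gata1 was at its highest, 1 tested blood gene was higher in KO than in WT. Of 15 listed, 9 could be tested, and on day 4 only Epor, the erythropoietin receptor, was higher in KO (1.27 ± 0.41, adjusted p = 0.0358), while Myb, a progenitor transcription factor (-3.50), and Spi1, the myeloid factor PU.1, were lower. Spi1 had no count in KO on that day. The globin genes Hba-a1, Hba-x, Hbb-bh1 and Hbb-y were at 0 in every KO and WT library of day 4, and on day 5 the only count of these genes in KO and WT was 1, of Hba-x, in 1 KO library. Summed TPM of the list was 6.09 and 6.91 in KO on day 4, against 7.74 and 33.6 in WT. On day 5, 5 of 9 were higher in KO, Runx1, Lmo2, Epor, Tal1 and Nfe2, and Myb was lower. Of all genes 7.68% were called on day 4 and 11.7% on day 5. Summed TPM of the list on day 5 was 5.95 to 10.9 in KO, against 7.22 to 10.1 in WT. Runx1, Lmo2 and Tal1 are also counted among the partners.

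Genes of heart and endoderm were higher in KO than in WT on days 4 and 5, as Gata4 and Gata6 were. Gata5 had 1 count in KO on day 4. On that day, 7 of 13 cardiac genes (median 2.85) and 10 of 14 definitive endoderm genes (median 2.87) were higher in KO and none was lower, beside a median near 0.00 over all genes. They included Isl1 (5.34), a factor of heart progenitors, Myl7 (3.81), an atrial myosin light chain, Tbx20 (2.85) and Mesp1 (3.37), a factor of early heart mesoderm. In endoderm they included the claudin Cldn6 (1.54), Cpm (4.50), a carboxypeptidase, and the transcription factors Hhex (2.83), Foxa2 (3.61) and Sox17 (3.43). On day 5, 13 of 13 cardiac genes (median 4.54) and 12 of 14 definitive endoderm genes (median 3.13) were higher. Of all genes 7.68% were called on day 4 and 11.7% on day 5. Summed cardiac TPM was 127.2 to 227.8 in KO on day 5, against 8.88 to 10.1 in WT. Median summed TPM of definitive endoderm genes in KO was 259.2 on day 3, 377.6 on day 4 and 366.2 on day 5. In WT it was 212.7, 108.0 and 92.66 on these days, so the WT level fell as well. Of primitive and visceral endoderm genes, 1 of 13 was higher on day 4 (Pdgfra, 1.48) and 4 of 13 on day 5. In MUT against the single WT70 library on day 5, 4 of 13 cardiac and 6 of 14 definitive endoderm genes were higher. None was lower, and 1.87% of all genes were called there.

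Other lists were counted beside 7.68% of all genes called on day 4 and 11.7% on day 5, with medians over all genes of 0.00 and -0.01. Of 11 endothelial and haemangioblast genes, among which GATA2 acts, 2 were higher in KO on day 4 (median 0.00), Flt1 (1.66) and Kdr (2.53), and 6 on day 5 (median 1.39), Kdr (3.86) among them. Of 10 GABAergic and V2b neural genes, 6 were lower in KO on day 4 (median -2.19). On day 5, 4 of them were lower and 2 higher (median -0.12). Of 12 neural progenitor genes, 6 were lower on day 4 (median -1.905) and 9 on day 5 (median -2.39). Of 9 primitive streak genes, 8 were higher on day 4 (median 2.675) and 6 on day 5 (median 1.97). Of 10 BMP response genes, 1 was higher and 2 lower on day 4 (median 0.36), and 5 were higher on day 5 (median 0.97). Of 11 trophoblast and surface ectoderm genes, 5 were higher and none lower on day 4 (median 0.20). On day 5, 5 of them were higher and 2 lower (median 0.39).

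Feeder fibroblasts could also contribute RNA. Of 10 embryonic fibroblast genes, 1 was higher and 2 lower in KO on day 4, and 5 were higher and 2 lower on day 5 (medians -0.19 and 0.80). Their summed TPM was 25.0 and 32.4 in KO on day 4, against 39.8 and 41.5 in WT, and 54.9 to 76.1 in KO on day 5, against 41.8 to 46.6 in WT. On day 5, Pdgfrb (2.73) and Fbln1 (1.13) were higher and Thy1 (-3.01) and Col1a2 (-1.86) lower. Their part in the day 5 differences was not tested.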

How the data were processed

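RNA of 36 libraries was sequenced from a stranded mRNA kit. Per the labels and the methods, the authors trimmed reads with Trim Galore 0.6.4 and quantified transcripts with Salmon 0.14.1 against GENCODE mouse transcripts (mm10), summed per gene with tximport. The deposited expected counts were unscaled, and 73.8% of the values were exactly whole; they were rounded here. The deposited TPM values, corrected by the authors for transcript length, served levels between genes, summed levels and 1 alternative. Of the 54281 genes 205 had no symbol.

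Genes were kept with the edgeR filter (minimum count 10, minimum total 15, by group). One model of 16 group means and a term for experiment 2 (19 residual degrees of freedom) was fitted to all 36 libraries with TMM factors and edgeR 4.0.16 (quasi-likelihood F test) in R 4.3.3, with Benjamini-Hochberg adjustment. A group of 1 library was taken to spread as the others did. The model with separate effects per experiment was added after the data had been seen. The fit was run on simulated counts with known changes for KO against WT on day 3 only, without an effect of experiment. The other comparisons were not simulated. Alternatives were DESeq2 1.42.0, limma 3.58.1 on log2(TPM + 1), other factors, filters, thresholds and references, and leaving out each library. All 6 members are named, and genes of a list are named by smallest p; a few others were chosen after their values were seen, such as globin and scaffold genes and those given for the experiments. Members and lists were chosen with earlier results of these data known. Libraries of 1 cell line recur on each day, which pairs the days: the deviations of 46 such pairs correlated at -0.0729 to 0.134 (median 0.0151). Count intervals are exact binomial and cover counting error only. Totals had a median of 14.6 M counts, and log2 CPM used a prior count of 2.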

Additional observations from a re-analysis of the deposited data

Results flagged for a closer look

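These 4 results met a test of a difference between effects. On day 5 the KO effect on Gata3 exceeded the MUT effect by 2.10 on the log2 scale. The KO effect on day 5, experiment 2 minus experiment 1, was -3.51 for Gata6, -3.26 for Gata4 and -4.21 for Gata1, and experiment 2 held 1 KO and 1 WT library on that day. Dixon's test was run only in the 2 groups of 4 libraries, KO and WT on day 3, for the 6 genes. In these 12 tests no library stood apart, and chance gives about 1 in 20. The day 5 groups of 3 were not tested.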

How the results depend on the processing

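Of the values for single members, 598 kept their direction and side of the threshold with 1 library left out, 6 gained and 20 lost a call, and 0 reversed. Under the other settings 889 kept theirs, 29 gained, 25 lost and 5 reversed. The cause was not tested where none is named.

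Counts of called members that moved by over 1.5 times were these. For KO over WT on day 4, limma called 2, and leaving out 1 library gave 1 to 4, with 1 (Gata1) without WT7 and 2 without KO1. For KO over WT on day 5, experiment 2 alone gave 3 in both fits. For MUT over WT70, WT7 and WT34 as the reference gave 1 on day 3 and 3 on day 5, and on day 5 all 3 wild-type lines, no filter and only the compared libraries gave 3 each. For the KO effect minus the MUT effect, KO against MUT directly gave 1 on day 3 and 4 on day 5, and on day 5 DESeq2 gave 2, no experiment term 0, no filter 3 and leave-one-out 0 to 2. For KO day 3 over day 0, limma gave 0, no filter 2, only the compared libraries 2 and leave-one-out 0 to 1. For KO day 5 over day 4, no filter gave 5, and leave-one-out gave 3 to 5, with 5 without KO1 of experiment 2. For WT day 3 over day 0, DESeq2, limma, a log2 threshold of 1.5 and no experiment term gave 0, and leave-one-out 0 to 1. For WT day 5 over day 4, limma and only the compared libraries gave 0, no experiment term and no filter 2, and leave-one-out 0 to 1. For WT day 5 over day 3 and MUT day 5 over day 3, limma gave 0. Smaller moves were, for KO over WT, 3 on day 4 with no experiment term (Gata4 lost, adjusted p = 0.0733) and 5 on day 5 by limma and in only the compared libraries (Gata1 lost). KO day 4 over day 3 had 3 by limma, and KO day 5 over day 4 had 4 by DESeq2 (Gata6 gained) and 4 in only the compared libraries (Gata1 gained, as lower). WT day 5 over day 3 had 2 at the threshold of 1.5 (Gata3 lost) and 2 in only the compared libraries (Gata2 lost), and MUT day 5 over day 3 had 3 with no filter (Gata5 gained).

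With a replicate block for the cell line, WT day 5 over day 4 called 0 in place of 1, and the block changed no other call; it was fitted only between days. The values that reversed were Gata1 KO over WT on day 5 in experiment 2 (-0.0962 alone, -0.0938 fitted together), Gata2 MUT on day 5 against WT7 and WT34 (-1.95), and Gata3 in WT by limma on TPM, on day 3 over day 0 (-0.29) and day 5 over day 3 (-0.0245). TPM of Gata3 varied at like CPM. Members with few counts, Gata5 above all, limit what these depths can show.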
